A study of Mus musculus with 16 samples.

Results

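The regions described here carried peaks of H3K36me3 (histone H3 trimethylated at lysine 36) in every list from 24-month-old mice used, and in neither young list used. They were found by chromatin immunoprecipitation followed by sequencing (ChIP-seq) in hematopoietic stem cells, the bone marrow cells that renew all blood lineages. Peaks of 5 H3K36me3 lists were merged where they overlapped or touched. A merged region was called old-only when all 3 lists at 24 months (old replicates 4, 5 and 6) touched it and neither of 2 lists at 4 months (young replicates 5 and 6) did. The members were thus chosen by their H3K36me3 peaks, and their H3K36me3 is described below without a test. The rule was met by 389 of 77590 merged regions, or 0.501%, which hold 684 kb in all. Young replicate 4, a list of 6399 peaks, took no part in the rule.

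All mice were of the C57BL/6 strain and wild type, per the series' design text, and were 4 or 24 months old, with no treatment given in the labels. The sort, SP-KSL-CD150+ at both ages, selects on dye efflux and on surface markers known to enrich stem cells of long-term potential. The labels call each library a technical replicate and give it the number of a biological one. They do not say whether animals were pooled or which libraries came from the same animals. A p-value below therefore measures the spread between these libraries, which may be technical. The identity of the sorted cells was not checked against marker genes, since no annotation of the files' build, mm9, was used here, and regions are named by position only.

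H3K36me3 is laid down by a methyltransferase that travels with elongating RNA polymerase II, so it is known as a mark of the bodies of transcribed genes. It recruits factors that silence spurious start sites inside genes, and on the same histone tail it hinders the Polycomb enzyme that writes H3K27me3, the mark of repressed developmental genes. H3K4me3 marks promoters, upstream of the stretch that H3K36me3 covers. Changes in these 3 marks have been studied in aged stem cells because the cells keep dividing through life while their output of blood lineages shifts.

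The lists differed in size and grain. The 3 old H3K36me3 lists held 39362 to 64769 peaks over 68.5 to 100.4 Mb. Young replicate 6 held 78586 peaks over 138 Mb, more than any old list. Young replicate 5 held 84437 peaks of a median width of 354 bp over 41.6 Mb, while the median width was 1041 to 1437 bp in the old lists. Read depth is unknown, so a region without a peak may still have carried the mark below the calling threshold. Young replicate 4 covered 5.90 Mb.

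The number of old-only regions rested on the lists used. Of the merged regions, 2189 (2.82%) were young-only, held by both young and no old lists, and 16247 were stable, held by all 5. With the same number of top-scoring peaks taken from each list the order turned, with 1019 old-only and 574 young-only regions. Equal numbers of peaks do not make equal coverage, since peaks of young replicate 5 were the narrowest (median of 354 bp in the full list). The part of this in the turn was not tested. Without young replicate 6 there were 3309 old-only regions, and without young replicate 5 there were 610. Without old replicate 4, 5 or 6 there were 1427, 914 and 893. Within title number 18, old replicate 6 and not young replicate 5 held 16552 merged regions. Young replicate 5 and not old replicate 6 held 9583, and both held 24847. Regions held by all 3 old lists and by exactly 1 young list numbered 2591, and in 2370 of them that list was young replicate 6. Among them, those with the shortest young peak lay just outside the rule. On chromosome 1 at 140572290 to 140574517, young replicate 5 had a peak of 244 bp with a score of 149, while the old lists covered 1802, 1027 and 1548 bp. Just inside the rule, on chromosome 2 at 48905577 to 48906491, the old lists covered 822, 882 and 486 bp, the last being the shortest coverage of any member in an old list.

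The old-only regions were short beside stable ones, but not beside merged regions as a whole. Their median length was 1604 bp, against 4632 bp for stable, 1082 bp for young-only and 1264 bp for all merged regions. Only 3 of the 389 were longer than the stable median. Within them the median length under peaks was 1067 bp in old replicate 4, 1105 bp in old replicate 5 and 824 bp in old replicate 6. Old replicate 6 had the least coverage in 243 of the 389. A single peak in each of the 3 lists made up 335 regions. In 348 regions some bases lay under peaks of all 3 lists, and the share of a region so covered had a median of 36.9%. The remaining 41 regions were chains of overlapping peaks with no base common to the 3 lists.

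The members ranked low within their own lists. Peaks were ranked by score within their list, as the percent of its peaks that score lower, and a region takes its highest-scoring peak. The median percentile of old-only regions was 37.8, 36.1 and 35.1 in old replicates 4, 5 and 6, and that of stable regions was 72.5, 79.2 and 82.1. Stable regions held more peaks from which to take the highest, with means of 1.74, 1.80 and 2.21 per region in these lists. Old-only regions held 1.04, 1.04 and 1.10, and the part of this in the gap was not tested. Young-only regions stood at similar ranks in the young lists, with medians of 36.9 and 37.4. The highest score of any old-only region was 718 in old replicate 4, 799 in old replicate 5 and 607 in old replicate 6, where the lists themselves reached 3205 to 3233. These values come from the lists that chose the regions and describe them only.

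**Figure D1:**
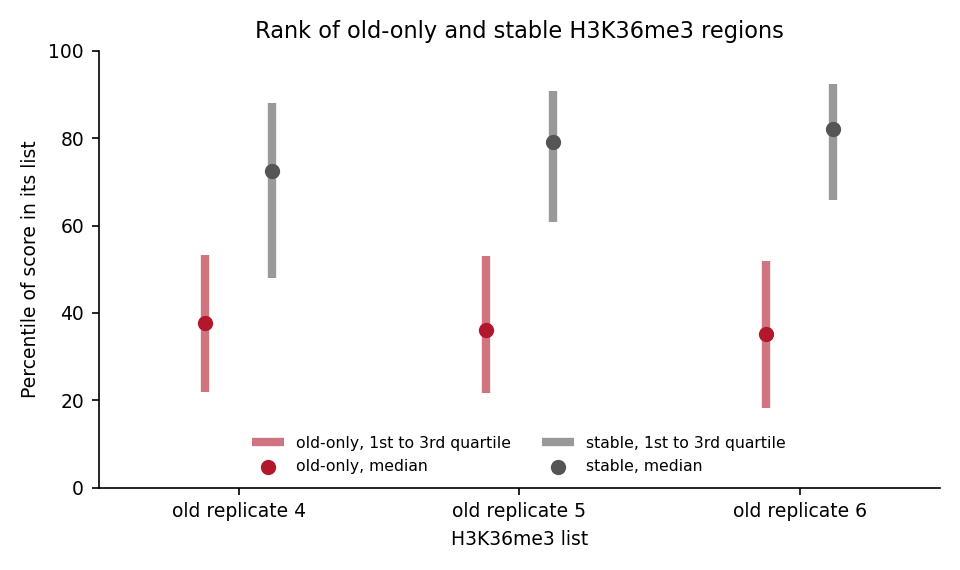
Percentile of the score of old-only (red) and stable (grey) H3K36me3 regions within each old list; points are medians over regions and bars run from the first to the third quartile. The old-only medians lie between 35.1 and 37.8, and the stable medians between 72.5 and 82.1.

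The longest old-only region lay on chromosome 10 at 107845656 to 107852906. It was covered over 6694, 6241 and 3572 bp in old replicates 4, 5 and 6, a mean of 5502 ± 1687 bp (SD, n = 3), against 0 bp in young replicates 5 and 6. All 3 old lists covered more of it than they covered in the median member, and old replicate 6 covered the least. Next came chromosome 12 at 113259307 to 113264905, with 1760, 5425 and 4702 bp and a mean of 3962 ± 1941 bp. Chromosome 15 at 6782441 to 6787606 had 4604, 3162 and 2520 bp, a mean of 3429 ± 1067 bp. The 3 old lists thus differed widely in how much of these regions they covered, and in each the young lists were at 0 by the rule.

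**Figure D2:**
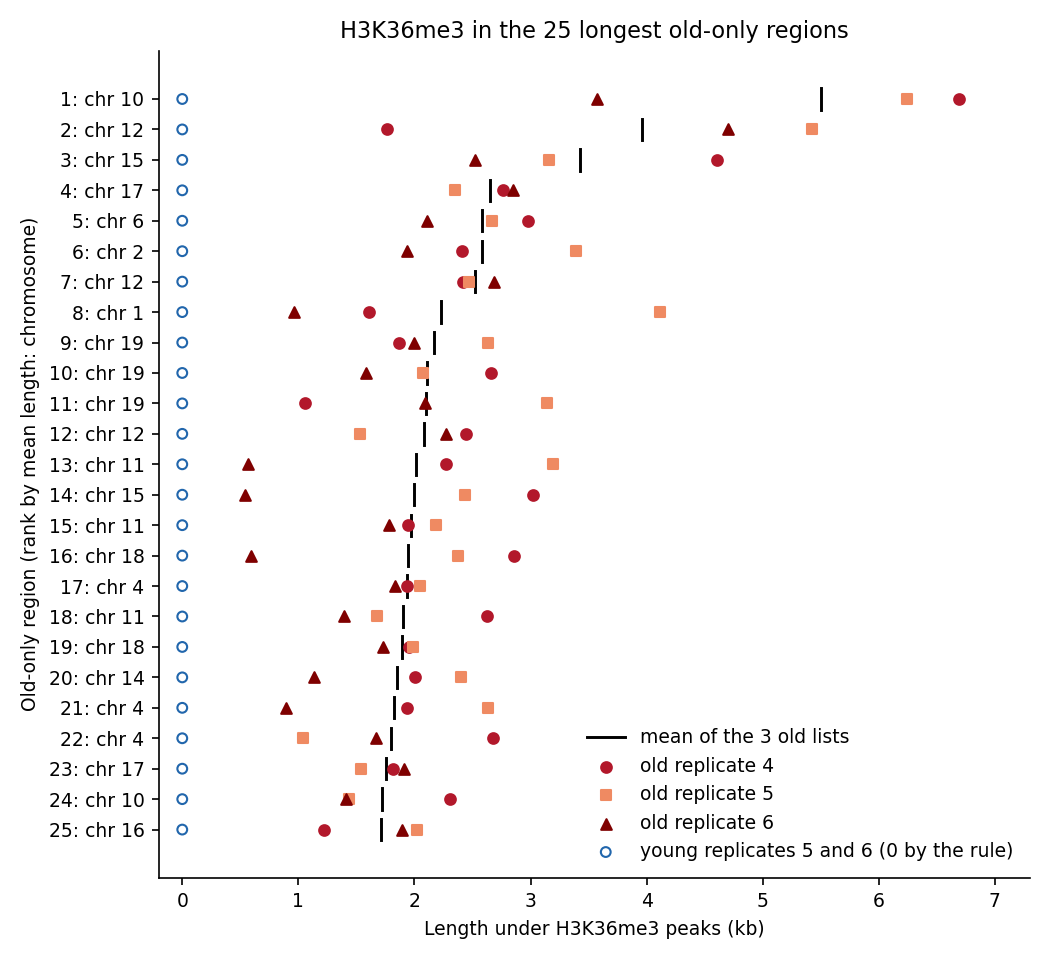
Length under H3K36me3 peaks (kb) in each old list for the 25 old-only regions with the largest mean, numbered by that mean; symbols are libraries, black ticks the mean of the 3 old lists, and open circles the young lists, at 0 by the rule. The means fall from 5502 bp in the first to 1714 bp in the last.

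Other members were covered to nearly the same length by all 3 old lists. The region on chromosome 17 at 31607868 to 31612095 had 2761, 2351 and 2851 bp, a mean of 2654 ± 267 bp. That on chromosome 12 at 73892999 to 73897089 had 2416, 2474 and 2687 bp, a mean of 2526 ± 143 bp. On chromosome 4 at 144515926 to 144518343 the lists covered 1936, 2045 and 1829 bp. The covered stretches did not fully coincide: 25.7%, 25.6% and 62.3% of these regions, in this order, lay under all 3 lists. The spread in length between old lists was small beside the mean for them. In contrast, chromosome 1 at 87510769 to 87514879 had 1611, 4111 and 966 bp. Old replicate 6 covered only 537 to 591 bp of 3 regions of the longest 25, on chromosome 11 at 108621073, chromosome 15 at 35731256 and chromosome 18 at 78971696. Of all 389 members, 13 had a mean of at least 2000 bp and 163 a mean under 1000 bp.

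Ranked by the lowest of their 3 percentiles, the leading member lay on chromosome 19 at 21921390 to 21925094. Its scores were 284, 325 and 433 in old replicates 4, 5 and 6, and the lowest percentile was 69.0. It was covered over 2662, 2076 and 1581 bp. The next were chromosome 10 at 27985550 to 27987858, with a lowest percentile of 67.9, and chromosome 14 at 35259009 to 35261141, with 67.3. Chromosome 9 came next, at 95625754 to 95627990, with 65.5, then chromosome 1 at 140534092 to 140535901, with 65.1. So even the best-ranked members stood below the stable medians in at least 1 list.

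Most old-only regions lay close to H3K36me3 that was present in young cells. The nearest peak of young replicates 5 and 6 was a median of 1353 bp away, and 296 members (76.1%) had one within 5 kb. In 157 of these a young peak lay within 5 kb on both sides, and in 139 on 1 side. Distance to a young peak was summarized for the members only, so this closeness is not shown to be particular to them. The stable regions were farther, at a median of 8916 bp, and 149 members (38.3%) had one within 5 kb. Young-only regions had a stable region at a median of 7478 bp. Within 50 kb of each member, with only that member left out, the median length under H3K36me3 peaks was 3311 and 15382 bp in young replicates 5 and 6. It was 8132, 11365 and 10053 bp in old replicates 4, 5 and 6. The old values thus lay between the young ones. In 30 of the 389 regions all 3 old lists covered more of these flanks than both young lists, and in 1 they covered less. The same lists chose the regions, and these counts were not made over all merged regions. Neighbouring members also count in the flanks, and the rule fixes these at 0 bp in both young lists. The second count also needs all 3 old lists to lie below young replicate 5, which covered less in all than any old list. Both counts are therefore a description only.

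**Figure D3:**
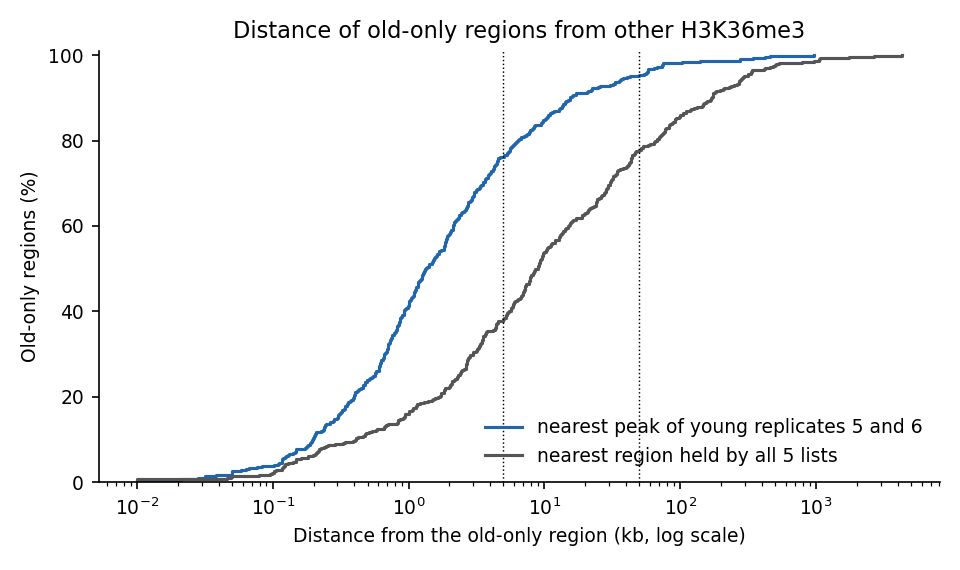
Share of the 389 old-only regions (%) with another H3K36me3 interval within a given distance (kb, log scale): the nearest peak of young replicates 5 and 6 (blue) and the nearest stable region (grey), with dotted lines at 5 and 50 kb. A young peak lies within 5 kb of 76.1% of the regions and within 50 kb of 95.1%.

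A small set lay far from young H3K36me3. There were 19 old-only regions (4.88%) with no young H3K36me3 peak within 50 kb. All members of the chromosome 12 group described below were among them, so the 19 are not all separate sites. The most distant, on chromosome 12 at 51490367 to 51492577, was 960403 bp from one and was covered over 1352, 1120 and 1101 bp in the old lists. Chromosome 15 at 63296944 to 63297996 was 462150 bp away and chromosome 10 at 22854808 to 22856457 was 423380 bp away. The longest with no other peak of either age within 50 kb lay on chromosome 6 at 128727709 to 128730684, with 2976, 2665 and 2105 bp. In 7 of the 19, all 3 old lists had further peaks within 50 kb, and in 5 none had. The further peaks include those of other members, which the rule places in all 3 old lists. This holds for the chromosome 12 group and for a pair on chromosome 8, at 71415849 and 71419506. In that pair the further peaks were those of the other member alone. The 19 had a median mean coverage of 1222 bp, against 1023 bp for the 296 members near young peaks. Their lowest percentile had a median of 31.3, against 16.1. Both differences are descriptions, since the same lists chose the regions.

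Old-only regions were spread over 20 chromosomes. They made up the largest share of merged regions on chromosome 14, at 7.17 per 1000, followed by chromosome 12 at 6.72 and chromosome 6 at 6.58. The share was 2.98 per 1000 on chromosome 7, 2.86 on chromosome 17 and 0.644 on chromosome X, where 1 member lay. Most members were single: 329 had no other within 100 kb. The other 60 formed 26 pairs and 2 groups of 4, on chromosomes 12 and 14.

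H3K27me3, measured in other libraries, was rare at the old-only regions at both ages. An island touched 8 and 7 of the 389 (2.06% and 1.80%) in young replicates 2 and 3. In old replicates 1, 2 and 3 it touched 5, 1 and 1 (1.29%, 0.257% and 0.257%). Both young libraries thus lay above all 3 old ones. The mean share was 1.93 ± 0.182% in young libraries (SD, n = 2) and 0.600 ± 0.594% in old ones (SD, n = 3). The difference was -1.33 percentage points, with a two-sided exact permutation p of 0.2, and 2 against 3 libraries cannot give a p below 0.1. Without the 4 neighbouring members on chromosome 12 described below it was -0.476 points (exact permutation p of 0.4), and with members drawn from peaks at or above each list's median score it was -0.069 points. Within the title numbers 18 and 20, which each occur at both ages, the share went from 2.06% to 0.257% and from 1.80% to 0.257%. Over all 77590 regions the means were 0.597% in young and 0.609% in old libraries.

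Young H3K27me3 replicate 1 was left out of these values. It touched 3.86% of old-only and 3.45% of stable regions, far above the 0.572 to 1.07% of stable regions touched by the other 5 libraries. With it the difference was -1.97 points and the exact permutation p was 0.1, the smallest that 3 against 3 libraries allow. The share was lower in the old library of all 3 pairs of equal replicate number, called same-numbered here. The pair of replicate 1 joins title numbers 16 (young) and 17 (old), so it does not share a title number. Against stable regions, old-only regions were touched more often in 3 of the 5 libraries, young replicates 2 and 3 and old replicate 1. They were touched less often in 2, old replicates 2 and 3. With both ages pooled, the mean paired difference was 0.35 ± 0.833 points (SD, n = 5). The two-sided exact sign-flip permutation p was 0.4375, so no difference beyond the spread between libraries was found in the pooled ages. Without the group of 4 on chromosome 12 the sign of this difference turned, to -0.16 points.

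**Figure D4:**
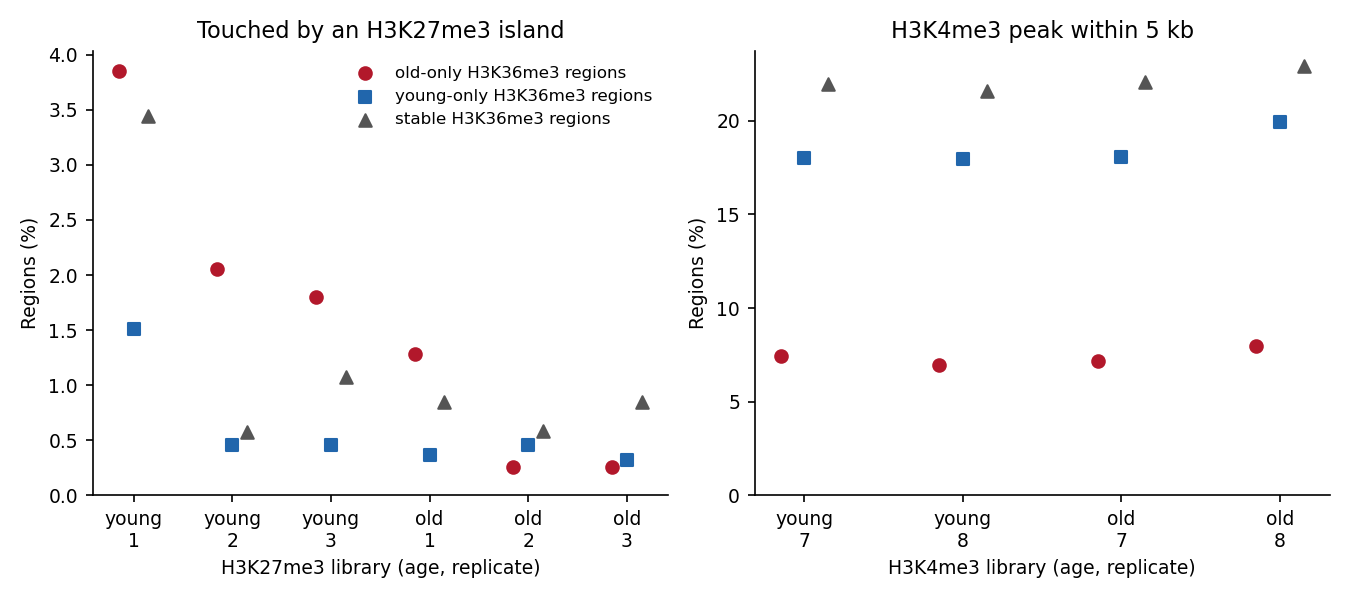
Share of H3K36me3 regions (%) touched by an H3K27me3 island (left) or with an H3K4me3 peak within 5 kb (right) in each library; circles are the 389 old-only, squares the 2189 young-only and triangles the 16247 stable regions. For H3K27me3 the old-only share falls from 2.06 and 1.80% in young replicates 2 and 3 to between 0.257 and 1.29% in the old libraries, and for H3K4me3 it lies between 6.94 and 7.97% in all 4.

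In 5 members, H3K27me3 was present in young replicates 2 and 3 and in no old library. These were 1.29% of the 389, while 0.0477% of all merged regions, 0.0739% of stable and 0.0457% of young-only regions showed this pattern. The reverse pattern, all 3 old and neither young library, occurred in 0 members and in 0.0232% of all regions. Of the 5, 3 lay in the group on chromosome 12, so they are not independent. Young replicate 1 held no island in any of the 5.

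The first of these 5 was on chromosome 2 at 164219875 to 164223355, the sixth of the old-only regions by mean length. H3K27me3 covered all 3481 bp of it in both young replicates 2 and 3 and 0 bp in each of the 3 old libraries. H3K36me3 covered 0 bp in young replicates 5 and 6 and 2409, 3395 and 1937 bp in the old lists. On chromosome 11 at 86611543 to 86613027, H3K27me3 covered all 1485 bp in young replicates 2 and 3 and 0 bp in the old libraries, and H3K36me3 covered 1067, 1400 and 1142 bp in the old lists. The absence of both marks from the other age at these sites was fixed by how they were chosen.

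The group on chromosome 12 spanned 54.2 kb, from 113253451 to 113307627. H3K27me3 islands covered 16177 and 27577 bp of this span in young replicates 2 and 3, and 2227, 1827 and 0 bp in old replicates 1, 2 and 3. H3K36me3 peaks covered 0 bp in all 3 young lists, young replicate 4 included, and 5180, 11679 and 10198 bp in the old lists. The rule fixed the order of the H3K36me3 lists within the 4 members, and the span was singled out after its values were seen, so these values are a description. Young H3K27me3 replicate 1 covered 0 bp. No H3K4me3 library had a peak inside the span, and all 4 had one that ended 47.8 to 48.0 kb before its start. Beyond the end of the span, H3K27me3 islands were present in young replicates 2 and 3 and in all 3 old libraries.

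Within this group, the longest member, at 113259307 to 113264905, was covered by H3K27me3 over 5200 and 4505 bp in young replicates 2 and 3 and 0 bp in the old libraries. The member at 113253451 to 113255275 had 1150 and 1350 bp in these young libraries and 0 bp in all old ones. That at 113278105 to 113279485 was covered over its full 1381 bp in both and 0 bp in all old libraries. The last member, at 113305821 to 113307627, differed: all 1807 bp were covered in both young libraries, and 827, 1807 and 0 bp in old replicates 1, 2 and 3. H3K36me3 covered 1403, 1460 and 772 bp of it in the old lists. Old H3K27me3 replicate 2 and the old H3K36me3 lists thus marked the same stretch.

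**Figure D5:**
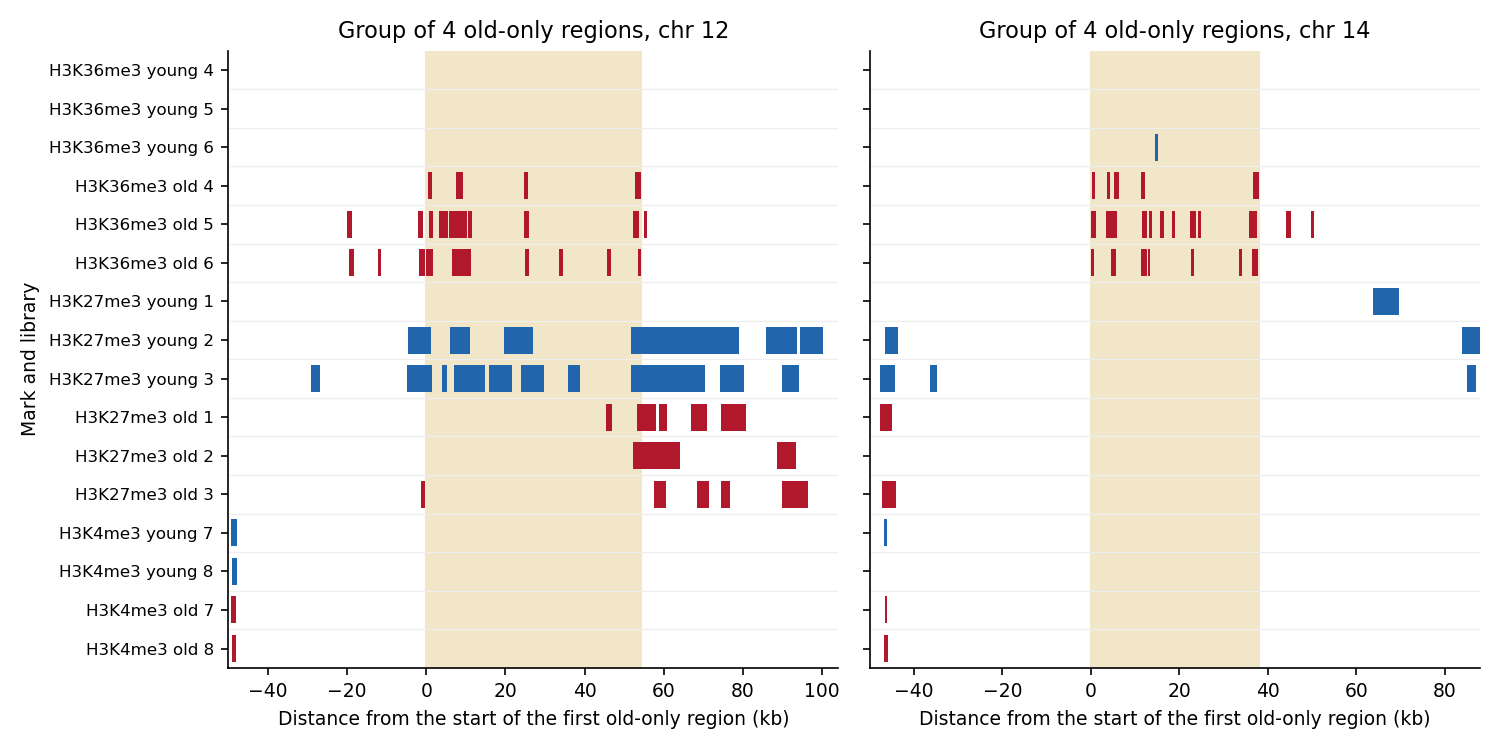
Peaks of every library over the 2 groups of 4 old-only regions, by distance from the start of the first region (kb); blue bars are young, red bars old libraries, and the shaded band is the span of the group. On chromosome 12, H3K36me3 peaks are in old lists only and H3K27me3 islands inside the band cover 16177 and 27577 bp in young replicates 2 and 3; on chromosome 14, no H3K27me3 lies in the band.

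Tested over every merged region covered by H3K27me3 in at least 2 of the 5 libraries, limma (adjusted p under 0.05, Benjamini-Hochberg) called 44 of 524 regions, or 8.4%. Of these, 30 (5.73%) had less and 14 (2.67%) more H3K27me3 coverage in old libraries. This split did not hold: 18 were higher and 17 lower in old libraries with same-numbered libraries as blocks, 7 and 0 without young replicate 2, and 21 and 1 without young replicate 3. Without old replicate 2 there were 39 higher and 37 lower. With young replicate 1 added there were 6 and 0, and limma called 0 regions, with 22 at an unadjusted p under 0.05, when that library and the blocks were used together.

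Only 7 of the 389 members could be tested for H3K27me3, and the 5 named above were called, 4 of them with the blocks. They entered the test through young replicates 2 and 3 alone, so a lower value in old libraries was fixed by the coverage filter and the calls support nothing about the members. Coverage that is complete at one age and 0 at the other also leaves almost no spread. With young replicate 1 added, 0 of 8 members were called, and with each library centred on its median, 0 of 7. Without young replicate 2 or 3 these members no longer passed the filter.

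The other tested members did not pass. On chromosome 1 at 87510769 to 87514879, H3K27me3 covered 3679 and 1479 bp in old replicates 1 and 3 and 0 bp in the other 3 libraries, a difference of 2.45 ± 1.49 (SE, limma adjusted p = 0.64). It is the 1 tested member with more H3K27me3 in old libraries. Both marks lay over it in old libraries, since H3K36me3 covered 4111 bp in old replicate 5. The last member of the chromosome 12 group had a difference of -1.43 ± 1.16 (SE, limma adjusted p = 0.76).

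The second group of 4, on chromosome 14 at 35223271 to 35261141, had no H3K27me3 island and no H3K4me3 peak in any library within its 37.9 kb. H3K36me3 peaks numbered 5, 9 and 7 in old replicates 4, 5 and 6, over 5041, 10785 and 6067 bp. Young replicate 6 had 1 peak of 670 bp there and young replicates 4 and 5 had none. The old lists thus lay well above the young ones over the whole span, as the rule fixed for its 4 members. Its longest member, at 35226707 to 35229661, was covered over 2008, 2403 and 1138 bp.

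H3K4me3 lay far from most old-only regions. A peak within 5 kb was found for 7.46% and 6.94% of them in young replicates 7 and 8, and for 7.20% and 7.97% in old replicates 7 and 8. The ages overlapped, with means of 7.20 ± 0.364% and 7.58 ± 0.545% (SD, n = 2 each) and a two-sided exact permutation p of 0.667, where 0.333 is the smallest possible. Over all merged regions the same share was 15.6 to 16.9%, and in stable regions, the class richest in nearby H3K4me3, it was 21.6 to 22.9%. The paired difference between old-only and stable regions was -14.8 ± 0.208 points (SD, n = 4) and negative in 4 of 4 libraries, with an exact sign-flip permutation p of 0.125, the smallest that 4 libraries allow. Against young-only regions, which are shorter, the difference was -11.1 ± 0.6 points, again in 4 of 4 libraries and with an exact permutation p of 0.125. Measured from the middle of each region, the difference from stable regions was -4.82 points. Stable regions are longer, so their edges lie farther from the middle, and neither measure is free of region length.

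The nearest H3K4me3 region shared by all 4 libraries was a median of 34936 bp from old-only regions. Over all merged regions this distance was 24221 bp, for young-only regions 21761 bp and for stable regions 18282 bp. No H3K4me3 peak of any library lay within 5 kb of 354 of the 389, and 25 had one in all 4 libraries. Among these 25, chromosome 9 at 20450587 to 20452281 had the most H3K4me3 within 5 kb, with 5601 and 5717 bp in young replicates 7 and 8 and 4911 and 6025 bp in the old ones. Chromosome 11 at 50102649 to 50104050 had 2924 and 2464 bp at 4 months, and 2350 and 2950 bp at 24 months. At neither did the ages separate. Chromosome 2 at 18605439 to 18606596, which has no other H3K36me3 peak within 50 kb in the 5 lists, had 2885 and 2093 bp at 4 months, and 2231 and 2184 bp at 24 months.

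No old-only region differed in nearby H3K4me3 by the test over all regions. By limma's adjusted p, 1 of 12597 regions passed (0.00794%), and 0 of the 28 members that could be tested. Before adjustment, p was under 0.05 in 579 regions and in 2 members, both with more coverage in old libraries and named here after their values were seen. On chromosome 9 at 5313200 to 5315040, H3K4me3 within 5 kb covered 1611 and 1599 bp at 4 months and 2431 and 2691 bp at 24 months, a log2 difference of 0.61 ± 0.13 (SE, limma adjusted p = 0.27). On chromosome 2 at 121002758 to 121003848 it covered 131 and 46 bp at 4 months and 428 and 346 bp at 24 months, with an adjusted p of 1.0. No member had H3K4me3 within 5 kb in both old and neither young library, a pattern of 0.289% of all regions, or the reverse, a pattern of 0.0606%.

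The young H3K36me3 library that the rule did not use held few of the old-only regions. Peaks of young replicate 4 touched 7 of the 389 (1.80%, with a 95% exact binomial interval of 0.726 to 3.67% for counting error only). It touched 3.35% of all merged regions (3.22 to 3.48%), 1.46% of young-only regions (1.00 to 2.06%) and 9.61% of stable regions (9.16 to 10.1%). Its share of old-only regions was thus within the interval of that of young-only regions, which both other young lists held, and its 6399 peaks cannot tell these classes apart. Chromosome 5 at 37051770 to 37052843 had peaks over its full 1074 bp in young replicate 4, and over 1074, 811 and 773 bp in the old lists. Chromosome 9 at 82825051 to 82827027 had peaks over 1246 bp in young replicate 4 and 1024, 1298 and 843 bp in the old lists. At these 2 members a young list matched the old ones. Islands of young H3K27me3 replicate 1, also of title number 16, covered 843 and 1827 bp of them. In the other 5, young replicate 4 covered 60 to 580 bp. Of the 7, 4 also held an H3K27me3 island in young H3K27me3 replicate 1, a library of the same title number, 16, as did 11 (2.88%) of the other 382. Over all merged regions these shares were 23.9% and 2.17%, and the part of this shared signal in the result was not tested.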

How the data were processed

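The data are 16 deposited peak lists, each from a single library. The submitters' processing notes name CASAVA 1.4, SICER, MACS and the build mm9. For the aligner, calling thresholds, control libraries and sequencing depth, the sources used here give nothing. The authors deposited 1 score per peak or island without a stated unit, so scores only rank peaks within a list. The members and all lists and rules were chosen with earlier results of these data known.

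Merging, coverage and distances were computed in Python 3.11.15 with numpy 2.4.6 and pandas 2.3.3. Shares of members were compared over libraries with exact permutation tests of the absolute difference in means, and differences between region classes with exact sign-flip tests. Coverage, as log2(bp + 200), was fitted by limma 3.58.1 (R 4.3.3) with a trend in regions covered in at least 2 libraries, and this step was tested on simulated data. Same-numbered H3K27me3 libraries of the 2 ages deviated together, with correlations of 0.148, 0.32 and 0.115 for numbers 1, 2 and 3 over 567 regions. They were taken as pairs from this check, which was made after the fits, and not from the labels, which do not say that a number is shared between ages. The binomial intervals used scipy 1.17.1. Named were the 25 members with the largest mean coverage, the 5 of the highest lowest percentile, the 3 just inside the rule, those that young replicate 4 touched, and the 5 with the most H3K27me3 and H3K4me3. Of these, the members on which results turn are given in full. Singled out after their values were seen were the members far from young peaks and those with H3K27me3 in young libraries alone. The groups on chromosomes 12 and 14 were also singled out in this way. So were the comparison of H3K4me3 with young-only regions, the distance from the middle of a region and the values without the chromosome 12 group. The alternatives tried were stricter thresholds, other overlaps and distances, other filters and scalings, and leaving out each library. H3K27me3 young replicate 1 and H3K36me3 young replicate 4 share title number 16 and stood apart from their groups. Old H3K36me3 replicate 4, which the rule uses, also has title number 16. Gene lists fixed for this work could not be used without an annotation of mm9, and no sequence was printed.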

Additional observations from a re-analysis of the deposited data

How the results depend on the processing

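The number of old-only regions, 389, was 219 with peaks up to 1 kb apart merged and 241 with the stricter threshold, which keeps peaks at or above each list's median score. It was 1019 with equal numbers of peaks per list, 604 where a list had to cover at least 50% of a region, 93 with no young peak within 5 kb, and 610 to 3309 with 1 library left out. It was 382 when young replicate 4 was also barred. Requiring 50% coverage, young replicate 4 held 0.514% of members.

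The H3K27me3 difference between ages kept its sign in all 12 alternatives, with -1.67 to -1.16 points when leaving out 1 library, -0.476 without the chromosome 12 group, an alternative added after seeing the data, and -0.069 with members from the stricter threshold. With those members the difference from stable regions reversed to -0.362 points, and without the chromosome 12 group to -0.161. For H3K4me3 the difference between ages was -0.129 points with the stricter threshold and 0.0 for peaks touching the region, and 0.0 to 0.771 with 1 library left out. The difference from stable regions stayed negative in all 9 alternatives, from -19.7 to -2.34 points.

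Limma's 44 calls for H3K27me3 became 6 with young replicate 1, 23 with the stricter threshold, 18 without the filter, 0 with centring, and 7 to 76 with 1 library left out. The 1 call for H3K4me3 became 95 with the stricter threshold, 0 without the filter, and 0 to 162 with 1 library left out, and no old-only region was among the H3K4me3 calls under any alternative. With the replicate block limma called 35 regions for H3K27me3, and 0 with young replicate 1 and the block, an alternative added after seeing the data. For the share of members with H3K27me3, the paired difference with the replicate block was -1.67 points over numbers 2 and 3 (exact p of 0.5) and -1.97 over all 3 numbers (exact p of 0.25, the smallest possible). The 2 H3K4me3 numbers were not taken as pairs (correlation of deviations -0.03). With the replicate block limma called 14 regions there, and the difference in the share of members was 0.386 points (exact p of 1.0). The count of old-only H3K36me3 regions comes from no test, so no block applies. Of 43 named regions, 22 kept their mean coverage within 1 SD under the stricter threshold and 21 did not. The cause of these differences was not tested.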
